A study of Mus musculus with 12 samples.

Results

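The genes described here are 10 contractile and actin-binding genes of the serum response factor (SRF) and myocardin-related transcription factor (MRTF) programme: Acta2, Tagln, Tagln2, Cnn2, Tpm1, Tpm2, Myl9, Flna, Vcl and Srf. They were found by gene symbol, and all 10 were among the 18926 genes of the deposited tables. Tagln was removed by the filter on low counts, so 9 of the 10 were among the 18053 genes tested. They were measured in RNA of S1 cells, a mouse gastric cancer line from a ChetPS mouse carrying floxed alleles of Cdh1 (F/+), of Trp53 (F/F) and of Smad4 (F/F), which every group shares. The study asked what loss of Nf2, of Rasa1 and of both does to gastric cancer cells grown as tumorspheres, the round clusters that cells form in suspension, although the labels call the cells a monolayer.

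SRF is a transcription factor that binds a short A/T-rich DNA element, the CArG box, and its choice of target genes depends on its partner. Its MRTF partners are held in the cytoplasm by monomeric actin and reach the nucleus when actin assembles into filaments, and they then switch on actin, tropomyosin, calponin and adhesion genes. Its other partners, the ternary complex factors, answer to ERK and drive immediate early genes such as Egr1 and Fos. In epithelial tumour cells such genes build stress fibres and focal adhesions, while Acta2, Tagln and Myl9 are best known from smooth muscle and myofibroblasts. NF2 (merlin) restrains the Hippo pathway effectors YAP and TAZ, which share targets with SRF, and RASA1 is a GTPase-activating protein that turns RAS off.

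There were 4 groups of 3 libraries: control cells with a non-targeting guide (the unnumbered library and libraries 1 and 2), cells labelled Rasa1-KO (unnumbered, 1 and 2), Nf2-KO cells (1, 2 and 3) and cells labelled Rasa1 and Nf2 double-KO (1, 2 and 3). All cells expressed Cas9, received their guides by lentivirus and were kept as pools rather than clones, and their sphere medium held epidermal growth factor at 50 ng/ml, after maintenance in 10% serum. Nothing says that libraries of a group came from separate cultures, and the study calls them technical, so every p-value here measures only the spread between these libraries. Library totals ran from 43818139 counts (control 2) to 96674463 (labelled double-KO 1). Values are in CPM, a count scaled to the total of its library (with TMM factors), unless another unit is named. A gene was called higher or lower at an adjusted p under 0.05 in edgeR's quasi-likelihood test, with Benjamini-Hochberg adjustment over the 18053 genes tested.

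The targeted genes were read first, and Nf2 went against the labels of 2 groups. Nf2 stood at 58.2 ± 2.82 CPM (SD, n = 3) in control, 11.9 ± 0.253 in the labelled Rasa1-KO libraries, 13.6 ± 0.631 in Nf2-KO and 58.9 ± 3.30 in the labelled double-KO libraries. Nf2 mRNA was therefore low in the labelled Rasa1-KO libraries and at the control level in the labelled double-KO libraries. Rasa1 stood at 71.3 ± 9.54 CPM in control, 31.9 ± 2.27 in the labelled Rasa1-KO libraries, 98.5 ± 2.21 in Nf2-KO and 20.5 ± 2.80 in the labelled double-KO libraries. The names of the deposited tables also give these 2 groups the other way round. The groups are called by their labels throughout, and any direction read from those labels carries this doubt.

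The control libraries also differed more among themselves than the libraries of any other group. Their mean Euclidean distance in log2 CPM was 125, against 52.3 in the labelled Rasa1-KO libraries, 52.2 in Nf2-KO and 75.9 in the labelled double-KO libraries. The unnumbered control library stood apart from the other 2, with a median chi-square per gene of 31.6 and 47.6 against 8.21 between those. Labelled double-KO 1 also stood apart from its group, at 11.5 and 12.1 against 2.65. Counts of members called are therefore also given without these libraries, and those of the gene lists against control without the first, beside the share of all genes called at the same setting. The share of counts from 3 genes of 7S RNA, a structural RNA, also varied. It was 11.1%, 9.15% and 7.17% in control (unnumbered, 1 and 2) and 11.5% to 13.0% in the labelled Rasa1-KO libraries. In Nf2-KO it was 8.17% to 10.4%, and in the labelled double-KO libraries 9.12% to 13.9%. Its part in these results was not tested.

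Promoters with a CArG box are shown because the members were chosen as SRF targets. RefSeq (GRCm38.p6) gave a promoter window of 250 bases before and 50 after the start site for 9 of the 10 members, Tagln being the exception. The box, CC and GG around a run of 6 A or T, reads the same on both strands in this search. It was found in 4 of the 9 windows (Cnn2, Myl9, Vcl and Srf) and in 1.37% of the 15879 windows of genes tested. The Acta2 window held 2 elements with 1 base of the run outside A and T, at -84 and -34 from the start site. Such elements or a full box were in 9.33% of the windows of genes tested. Capitals mark the boxes, and each line runs 5′ to 3′ on the gene's strand and lies wholly before the start site used by the RefSeq window, which for Acta2, Myl9, Vcl and Srf is inside the annotated gene because the gene's span begins further upstream.
Cnn2 (chr10:79988524-79988573, plus strand, box at -56): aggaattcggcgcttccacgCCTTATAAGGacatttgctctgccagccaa
Myl9 (chr2:156775283-156775332, plus strand, box at -161): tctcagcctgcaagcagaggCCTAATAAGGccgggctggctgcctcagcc
Vcl (chr14:20929151-20929200, plus strand, box at -227): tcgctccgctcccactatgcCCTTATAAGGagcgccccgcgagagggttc
Srf (chr17:46556195-46556264, minus strand, boxes at -82 and -62): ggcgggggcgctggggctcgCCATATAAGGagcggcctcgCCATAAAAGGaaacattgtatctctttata
Acta2 (chr19:34255378-34255477, minus strand, near-boxes at -84 and -34): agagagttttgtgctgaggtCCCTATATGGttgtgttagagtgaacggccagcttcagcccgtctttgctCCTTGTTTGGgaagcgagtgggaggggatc

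Cnn2 and Myl9 both carried a box, and were called in opposite directions when the groups with low Nf2 mRNA were set against control. No box or near-box was in the windows of Tagln2, Tpm1, Tpm2 and Flna, which says only that these letters are not in those windows.

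Per transcript length, in TPM (counts scaled by length and by library), the members spanned a wide range of levels. Averaged over the 12 libraries, Tpm1 stood highest at 233 TPM (174 to 311), followed by Flna at 174 (121 to 219) and Tagln2 at 144 (104 to 255). Vcl followed at 79.5 TPM (45.2 to 108) and Cnn2 at 46.2 (24.5 to 74.9), then Tpm2 at 16.3 (5.96 to 26.1) and Srf at 7.91 (5.70 to 10.4). The smooth muscle genes lay at the bottom, Acta2 at 2.89 TPM (0.340 to 9.72), Myl9 at 2.00 (0.217 to 6.03) and Tagln at 0.0287 (0.00105 to 0.140). The ranges of neighbours in this order overlapped, apart from those of Myl9 and Tagln. On average over the labelled double-KO libraries, Acta2 (7.11 TPM) stood above Srf (6.05), but not in labelled double-KO 1 (3.52 against 5.70). The 2 scarcest members tested varied most between groups: the range of group means on the log2 CPM scale was 3.92 for Myl9, 3.65 for Acta2, 1.55 for Tpm2 and 1.40 for Cnn2, and 0.59 or less for Tpm1, Vcl, Srf, Tagln2 and Flna. In bulk RNA, fewer cells with a transcript and less transcript per cell cannot be told apart.

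**Figure D1:**
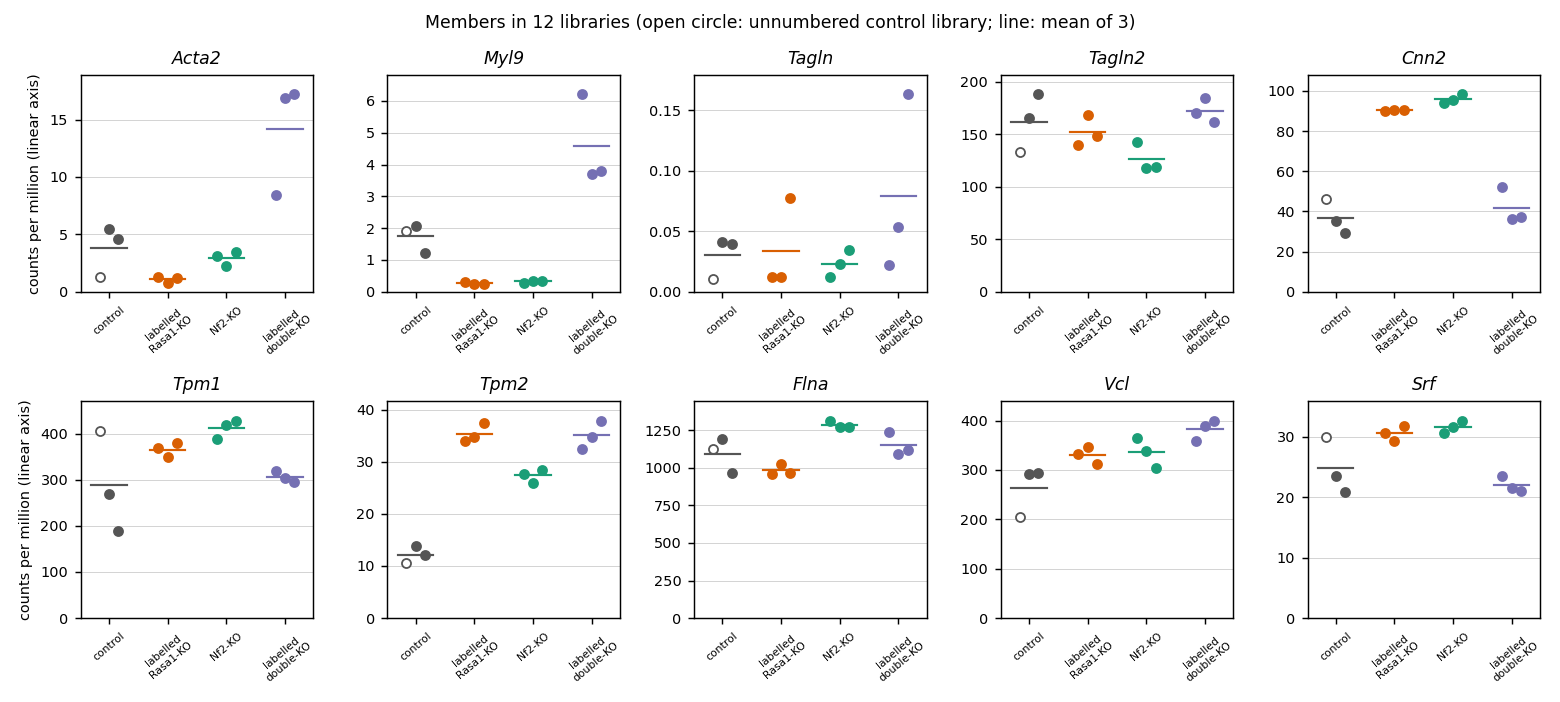
Level in CPM (vertical axis, linear, TMM-scaled) of the 10 members in the 12 libraries, 1 point per library, by group along the horizontal axis, with a line at the mean of 3 and an open circle for the unnumbered control library. Acta2 and Myl9 stood highest in the labelled double-KO libraries, and Cnn2 in the labelled Rasa1-KO and Nf2-KO libraries, while Tpm2 was above control in all 3 other groups.

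Acta2 encodes smooth muscle α-actin (19:34240336-34255585, GRCm38 as for all positions here). Its levels were 1.33, 5.50 and 4.56 CPM in control (unnumbered, 1 and 2), 1.28, 0.779 and 1.16 in the labelled Rasa1-KO libraries, 3.15, 2.25 and 3.48 in Nf2-KO, and 8.42, 16.9 and 17.2 in the labelled double-KO libraries. All 3 libraries labelled double-KO were above all others and all 3 labelled Rasa1-KO were below all others, although the unnumbered control library, at 1.33, came close to them. Against control, Acta2 fell by 1.82 on the log2 scale in the labelled Rasa1-KO libraries (SE 0.47, adjusted p = 0.0095, edgeR), a 3.53-fold decrease. It rose by 1.91 in the labelled double-KO libraries (SE 0.45, adjusted p = 0.029, edgeR), a 3.75-fold increase. In Nf2-KO its log2 change was -0.35 (SE 0.45, adjusted p = 0.54, edgeR), and the control libraries lay on both sides of it.

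The call in the labelled double-KO libraries was the less firm of the 2 for Acta2: its adjusted p was 0.11 without labelled double-KO 2, 0.10 without labelled double-KO 3, 0.051 without labelled Rasa1-KO 2 and 0.25 when only these 2 groups were fitted (edgeR). The Nf2-KO value was -0.77 (adjusted p = 0.041, edgeR) without the unnumbered control library and 0.02 without control 1.

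Myl9 encodes a regulatory light chain of myosin II, which its kinase phosphorylates to start contraction (2:156775408-156781657). It stood at 1.92, 2.08 and 1.23 CPM in control, 0.314, 0.256 and 0.244 in the labelled Rasa1-KO libraries, 0.282, 0.354 and 0.337 in Nf2-KO, and 6.21, 3.71 and 3.80 in the labelled double-KO libraries. The libraries with low Nf2 mRNA had between 19 and 31 counts of Myl9 each, and the labelled double-KO libraries between 277 and 568. Myl9 fell 6.43-fold in the labelled Rasa1-KO libraries (log2 change -2.68, SE 0.30, adjusted p = 3.7e-05) and 5.38-fold in Nf2-KO (-2.43, SE 0.29, adjusted p = 4.8e-05), and rose 2.61-fold in the labelled double-KO libraries (1.38, SE 0.27, adjusted p = 0.011, edgeR throughout). No group overlapped control. The first 2 calls held in all 20 alternative fits (other scaling, filter, tool, block or samples), and of these fits the third was lost only when 2 groups alone were fitted (adjusted p = 0.18, edgeR).

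Tagln, the smooth muscle protein SM22 that bundles actin (9:45929628-45936058), was close to undetected. It had 1, 3 and 2 counts in control, 1, 1 and 6 in the labelled Rasa1-KO libraries, 1, 2 and 3 in Nf2-KO, and 2, 4 and 13 in the labelled double-KO libraries, 39 in all. The filter on low counts removed the gene. With no filter it was not called in any of the 5 comparisons, and its log2 change in the labelled double-KO libraries against control was 1.44 (SE 0.86, adjusted p = 0.39, edgeR). The gene also overlaps Pcsk7, and whether counting used strand was not stated, so its reads and those of its neighbour cannot be told apart.

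Cnn2 encodes calponin 2, which binds actin filaments and slows myosin on them (10:79988600-79995400). It stood at 46.1, 35.4 and 29.1 CPM in control, 90.0, 90.5 and 90.3 in the labelled Rasa1-KO libraries, 94.1, 95.5 and 98.3 in Nf2-KO, and 52.1, 36.1 and 37.3 in the labelled double-KO libraries. All 6 libraries with low Nf2 mRNA were thus above all 6 others, the highest of which was at 52.1 CPM. Cnn2 rose 2.45-fold in the labelled Rasa1-KO libraries (log2 change 1.29, SE 0.17, adjusted p = 1.5e-04) and 2.60-fold in Nf2-KO (1.38, SE 0.17, adjusted p = 7.1e-05, edgeR), in all 20 alternative fits each. In the labelled double-KO libraries the log2 change was 0.18 (95% interval -0.19 to 0.55, adjusted p = 0.60, edgeR), with overlapping libraries.

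Tpm2 encodes a tropomyosin, a coiled coil that lies along the actin filament (4:43513726-43523583). It stood at 10.5, 13.9 and 12.1 CPM in control, 34.0, 34.7 and 37.4 in the labelled Rasa1-KO libraries, 27.7, 25.9 and 28.5 in Nf2-KO, and 32.5, 34.8 and 37.9 in the labelled double-KO libraries. It was the member that rose in all 3 comparisons with control, which share the control libraries: 2.91-fold (log2 change 1.54, SE 0.12, adjusted p = 2.5e-06), 2.25-fold (1.17, SE 0.12, adjusted p = 1.2e-05) and 2.89-fold (1.53, SE 0.12, adjusted p = 8.5e-05), in that order of groups (edgeR). All 3 calls held in all 20 alternative fits. Tpm2 overlaps Car9, carbonic anhydrase 9, which rose in the same 3 comparisons by 1.59, 2.50 and 1.62 on the log2 scale, from 1.28 CPM in control to 3.87, 7.28 and 3.96. Without a stated strand, reads of these 2 genes cannot be told apart.

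Tpm1, the other tropomyosin of the set (9:67022590-67049672), varied widely within control, at 406, 268 and 189.5 CPM. The labelled Rasa1-KO libraries were at 368, 349 and 379 CPM, Nf2-KO at 388, 419 and 428, and the labelled double-KO libraries at 319, 304 and 295, all inside or just above the control range. Tpm1 was not called against control in any group (log2 changes 0.35, 0.52 and 0.09, adjusted p = 0.20, 0.064 and 0.86, edgeR). Without the unnumbered control library the changes were 0.68, 0.85 and 0.42 (adjusted p = 4.9e-04, 8.4e-05 and 0.024, edgeR), and Tpm1 was then called in all 3 comparisons. Without control 2 they were 0.11, 0.28 and -0.13 (adjusted p = 0.55, 0.14 and 0.67, edgeR). Tropomyosin genes are alike in sequence, and how shared reads were counted was not stated.

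Flna encodes filamin A, which crosslinks actin filaments and ties them to integrins (X:74223461-74249854). It stood at 1127, 1193 and 964 CPM in control, 961, 1025 and 965 in the labelled Rasa1-KO libraries, 1315, 1274 and 1275 in Nf2-KO, and 1241, 1093 and 1121 in the labelled double-KO libraries. In CPM all 3 Nf2-KO libraries were above all control libraries, while the other groups overlapped control. In TPM the Nf2-KO libraries (184 to 212) overlapped control (158 to 219), and the labelled Rasa1-KO libraries (121 to 139.6) were below every control library. The log2 change in Nf2-KO was 0.23 (95% interval -0.01 to 0.47, adjusted p = 0.10, edgeR). It was 0.26 (adjusted p = 0.046, edgeR) without the unnumbered control library and 0.14 (adjusted p = 0.28, edgeR) without control 2.

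Vcl encodes vinculin, which links talin and actin in focal adhesions (14:20929383-21033676, overlapping Ap3m1). Its levels were 205, 291 and 293 CPM in control, 332, 347 and 313 in the labelled Rasa1-KO libraries, 364, 338 and 304 in Nf2-KO, and 359, 388 and 399.9 in the labelled double-KO libraries. Every knockout library was above every control library in CPM. In TPM, control ran from 45.2 to 104 and every knockout group overlapped it. These groups ran from 61.0 to 73.7 (labelled Rasa1-KO), 68.9 to 91.8 (Nf2-KO) and 71.6 to 108 (labelled double-KO). The log2 changes were 0.33 (adjusted p = 0.076), 0.35 (adjusted p = 0.060) and 0.54 (SE 0.14, adjusted p = 0.041, edgeR), and the third passed the threshold. Vcl did not differ beyond the threshold between the labelled Rasa1-KO and labelled double-KO libraries (log2 difference -0.21, 95% interval -0.51 to 0.09, adjusted p = 0.28, edgeR). DESeq2 called Vcl in the first 2 comparisons too (adjusted p = 0.033 and 0.021). The edgeR call in the labelled double-KO libraries was lost in 14 of 20 alternative fits, and among libraries left out singly it held only without the unnumbered control library or control 2 (adjusted p otherwise 0.052 to 0.13, edgeR). Tagln2, transgelin 2 (1:172500246-172507375), stood at 133, 165 and 188 CPM in control, 140.1, 168 and 148 in the labelled Rasa1-KO libraries, 143, 118 and 119 in Nf2-KO, and 170.1, 184 and 162 in the labelled double-KO libraries. It was not called against control, and came closest in Nf2-KO (log2 change -0.35, adjusted p = 0.055, and -0.48, adjusted p = 0.0026, without the unnumbered control library, against -0.25, adjusted p = 0.17, without control 2, edgeR).

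Srf itself (17:46546838-46558267) varied little. It stood at 29.9, 23.6 and 20.9 CPM in control, 30.6, 29.4 and 31.8 in the labelled Rasa1-KO libraries, 30.6, 31.6 and 32.7 in Nf2-KO, and 23.5, 21.6 and 21.1 in the labelled double-KO libraries. Of the 6 libraries with low Nf2 mRNA, 5 were above the highest control library, and the labelled double-KO libraries lay within the control range. This order holds in CPM. In TPM the labelled Rasa1-KO libraries (7.28 to 7.55) and the labelled double-KO libraries (5.70 to 6.71) were below every control library (8.09 to 9.07). The Nf2-KO libraries (8.96 to 10.4) overlapped control in TPM. Srf rose 1.27-fold in Nf2-KO (log2 change 0.35, SE 0.12, adjusted p = 0.040, edgeR), a call lost in 13 of 20 alternative fits. Among libraries left out singly, it held only without the unnumbered control library or labelled double-KO 1, and its adjusted p was otherwise between 0.057 and 0.12, with a change of 0.23 without control 2. In the labelled Rasa1-KO libraries the change was 0.30 (adjusted p = 0.069), 0.46 (adjusted p = 9.2e-04, edgeR) without the unnumbered control library and 0.19 (adjusted p = 0.18, edgeR) without control 2.

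Counted over the set, 2 of the 9 members tested rose and 2 fell in the labelled Rasa1-KO libraries, where 19.6% of all genes tested rose and 22.1% fell. In Nf2-KO 3 rose and 1 fell, against 20.4% and 22.1% of all genes. In the labelled double-KO libraries 4 rose and 0 fell, against 3.98% and 2.42% of all genes. For members that fell there, edgeR and DESeq2 both gave 0, and the 4 members with an unadjusted p under 0.05 had all risen. The median log2 change over the 9 was 0.30, 0.35 and 0.18, beside -0.08, -0.07 and -0.04 over all genes tested. Without the unnumbered control library, 4 rose and 2 fell in the labelled Rasa1-KO libraries, beside 30.2% and 30.2% of all genes. In Nf2-KO 5 then rose and 3 fell, beside 30.6% and 30.9%, and in the labelled double-KO libraries 5 rose and 0 fell, beside 17.2% and 12.8%. Calls over all genes thus increased as well. Without labelled double-KO 1, 3 rose in the labelled double-KO libraries (Acta2, Myl9 and Tpm2) and 0 fell, where 6.69% of all genes were called in either direction, and the members called in the other 2 comparisons with control were the same. Without labelled double-KO 2 or 3, Acta2 (adjusted p = 0.11 and 0.10) and Vcl (adjusted p = 0.13 and 0.12, edgeR) were no longer called higher there. Of all genes, 1.91% and 1.98% then rose. With only control and labelled double-KO libraries fitted, Tpm2 alone was called, beside 0.0283% of all genes in each direction. Some difference among the 4 groups was called for 6 of the 9 (Acta2, Cnn2, Tpm2, Myl9, Vcl and Srf), and for 45.9% of all genes tested. Without the unnumbered control library these were 9 of the 9 and 69.0%, and without labelled double-KO 1 they were 5 of the 9 (not Vcl) and 44.4%.

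**Figure D2:**
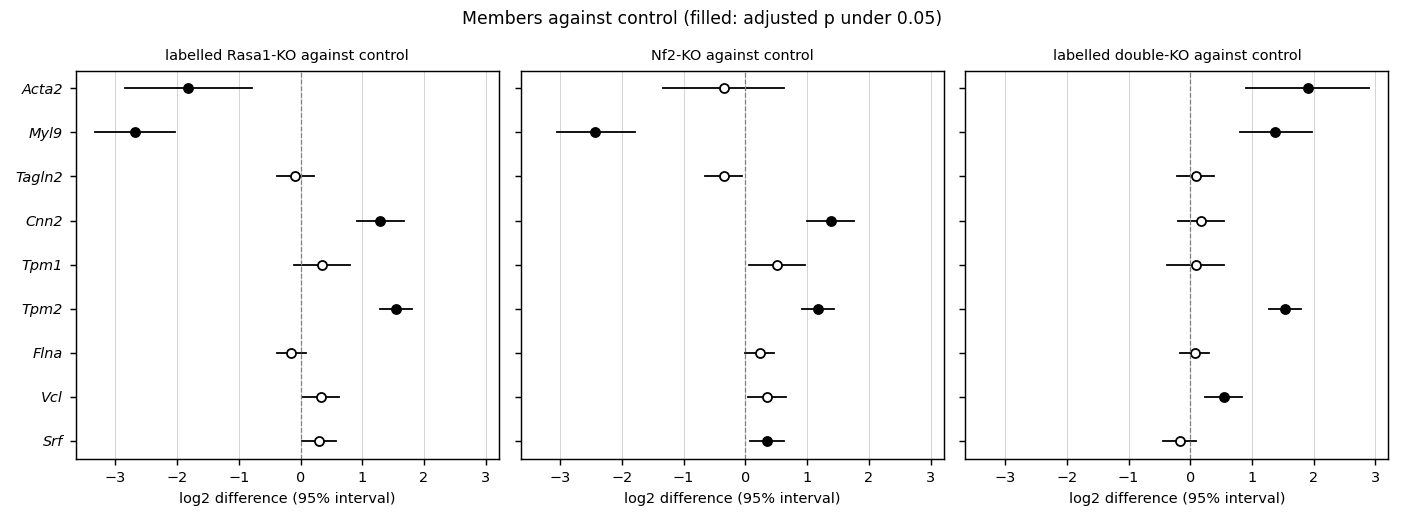
Log2 fold change (horizontal axis) of the 9 members tested against control, with 95% intervals of the edgeR fit, filled where the adjusted p was under 0.05. Acta2 and Myl9 lie left of 0 for the labelled Rasa1-KO libraries and right of it for the labelled double-KO libraries, and Tpm2 lies right of 0 in all 3 panels.

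Set directly against each other, the labelled Rasa1-KO and labelled double-KO libraries differed in 4 members. In the labelled Rasa1-KO libraries, Cnn2 was 2.16-fold higher (log2 difference 1.11, SE 0.17, adjusted p = 7.0e-04) and Srf 1.39-fold higher (0.47, SE 0.12, adjusted p = 0.014, edgeR). Acta2 was 13.2-fold lower (-3.72, SE 0.49, adjusted p = 2.6e-04) and Myl9 16.8-fold lower (-4.07, SE 0.31, adjusted p = 5.4e-06, edgeR). Of all genes tested, 13.9% were higher and 16.1% lower. The Srf difference had an adjusted p of 0.058 without labelled Rasa1-KO 2, 0.053 without labelled double-KO 2 and 0.079 without labelled double-KO 3 (edgeR), whereas the other 3 calls held in all 20 alternative fits. With the unnumbered control library left out the same 4 members were called, where 22.3% of all genes were higher and 24.2% lower, and likewise without labelled double-KO 1 (11.1% and 13.8%). Tpm2 did not separate these groups, with a log2 difference of 0.01 (95% interval -0.24 to 0.27).

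The labelled Rasa1-KO and Nf2-KO libraries, which share low Nf2 mRNA, had 0 members called by edgeR, while 1.90% of all genes tested were higher and 1.72% lower in the labelled Rasa1-KO libraries. At an unadjusted p under 0.05 there were 3 members. Acta2 had a log2 difference of -1.47 (SE 0.46, adjusted p = 0.12), Flna -0.39 (SE 0.11, adjusted p = 0.082) and Tpm2 0.37 (SE 0.12, adjusted p = 0.12, edgeR). DESeq2 called 1 higher (Tpm2) and 2 lower (Acta2 and Flna), beside 3.39% and 4.11% of all genes. So did edgeR without the unnumbered control library, beside 5.48% and 6.75%. With only these 2 groups fitted, edgeR called Tpm2 higher (0.36, adjusted p = 0.0021) and Acta2 (-1.47, adjusted p = 3.9e-04), Flna (-0.40, adjusted p = 2.6e-04) and Tpm1 (-0.18, adjusted p = 0.038) lower, beside 12.4% and 14.2% of all genes. Without labelled double-KO 1 edgeR again called 0, beside 4.32% of all genes in either direction. Cnn2 and Myl9 had log2 differences of -0.09 (95% interval -0.46 to 0.28) and -0.26 (-0.92 to 0.41). The 7S RNA share also separated these 2 groups (11.5% to 13.0% against 8.17% to 10.4%), and its part here was not tested.

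The design also asks whether the changes of the single knockouts add up to that of the double knockout. The departure from additivity is the log2 change of the labelled double-KO against control less those of the labelled Rasa1-KO and of Nf2-KO. As labelled, 7 of the 9 members departed, beside 52.1% of all genes tested. The values were largest for Myl9 (6.50, SE 0.42, adjusted p = 3.0e-07), Acta2 (4.08, SE 0.65, adjusted p = 3.3e-04) and Cnn2 (-2.49, SE 0.24, adjusted p = 7.4e-06, edgeR). With the labels of the 2 groups exchanged, 3 of the 9 departed, beside 6.32% of all genes tested, and all 3 were below additivity. These were Acta2 (-3.37, SE 0.65, adjusted p = 0.011), Myl9 (-1.64, SE 0.40, adjusted p = 0.033) and Tpm2 (-1.16, SE 0.16, adjusted p = 0.0021, edgeR). Cnn2 was then at -0.27 (95% interval -0.79 to 0.26). Acta2 and Myl9 changed sign with the labels, and Tpm2 did not. Without the unnumbered control library 7 of the 9 departed as labelled and 6 with exchanged labels, beside 65.3% and 20.8% of all genes. Without labelled double-KO 1 these were 5 and 2, beside 50.0% and 6.97%. The departures then lost were those of Tagln2 (0.54, adjusted p = 0.054) and Tpm1 (-0.81, adjusted p = 0.063) as labelled and of Myl9 (-1.36, adjusted p = 0.054, edgeR) with exchanged labels. Over all 12 fits that left out 1 library, these 3 calls were lost in 8, 10 and 8.

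**Figure D3:**
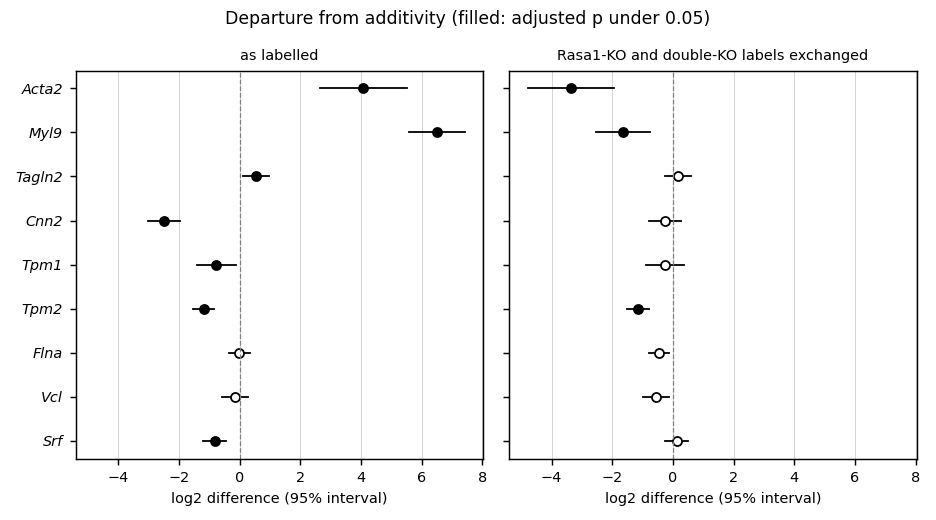
Departure from additivity (horizontal axis, log2 scale) of the 9 members tested, with 95% intervals of the edgeR fit, as labelled on the left and with the Rasa1-KO and double-KO labels exchanged on the right, filled where the adjusted p was under 0.05. Myl9 lies at 6.50 on the left and at -1.64 on the right, and Tpm2 at -1.19 and -1.16.

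The other genes of the pathway were taken from gene lists, whose counts stand beside the same shares of all genes tested as above: 19.6% rose and 22.1% fell in the labelled Rasa1-KO libraries, 20.4% and 22.1% in Nf2-KO, and 3.98% and 2.42% in the labelled double-KO libraries. Of 19 regulators of SRF and MRTF tested, 6 rose and 5 fell in the labelled Rasa1-KO libraries, 7 rose and 3 fell in Nf2-KO, and 2 rose and 0 fell in the labelled double-KO libraries. Their median log2 change was 0.15, 0.11 and -0.07. Without the unnumbered control library 8 rose and 7 fell, 8 rose and 6 fell, and 7 rose and 2 fell, in that order of groups, and the shares of all genes were then 30.2% and 30.2%, 30.6% and 30.9%, and 17.2% and 12.8%. Mrtfb, an SRF coactivator, fell by 1.11 on the log2 scale in the labelled Rasa1-KO libraries (SE 0.36, adjusted p = 0.027) and fell by 0.99 in Nf2-KO (SE 0.36, adjusted p = 0.043, edgeR), with libraries that overlapped control in both. These calls were lost in 5 and in 10 of the 12 fits that left out 1 library each (adjusted p 0.054 to 0.11 and 0.051 to 0.17, edgeR), the second also without labelled double-KO 1. Mrtfa was at -0.77 in each (adjusted p = 0.073 in both) and was called lower in both without the unnumbered control library (-1.12 in each, adjusted p = 8.8e-05 and 8.3e-05, edgeR). Both had wide control values, from 16.6 to 58.0 CPM for Mrtfb and from 20.8 to 62.4 CPM for Mrtfa. Elk4, a ternary complex factor, fell by 1.32 (adjusted p = 0.013) and fell by 1.30 (adjusted p = 0.014, edgeR) in these 2 comparisons, although the unnumbered control library (22.3 CPM) lay among the knockout libraries and controls 1 and 2 were at 68.2 and 77.7 CPM. Leaving out 1 library lost these calls in 2 and in 3 of the 12 fits (adjusted p at most 0.059, edgeR). Phactr1, an actin-binding RPEL protein, fell by 1.25 (adjusted p = 0.0059, edgeR) in the labelled Rasa1-KO libraries. Diaph3, a formin that nucleates actin filaments, rose by 1.25 (SE 0.14, adjusted p = 3.0e-05, edgeR) in Nf2-KO, from 13.3 to 31.6 CPM. In the labelled double-KO libraries, Limk1, the kinase that inactivates cofilin, rose by 0.82 (SE 0.12, adjusted p = 0.0028) and Rhob, a small GTPase of the actin cytoskeleton, by 0.35 (SE 0.09, adjusted p = 0.043, edgeR), and both were called higher in the other 2 comparisons with control too. The Rhob call in the labelled double-KO libraries was lost in 9 of the 12 fits (adjusted p 0.061 to 0.19, edgeR).

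Of 5 other actins, the 2 cytoplasmic ones were tested, and Acta1, Actc1 and Actg2 were not analysed here. Actb, the main cytoplasmic actin, stood at 2926 ± 363 CPM in control, 3771 ± 87.7 in the labelled Rasa1-KO libraries, 4153 ± 121 in Nf2-KO and 2899 ± 104 in the labelled double-KO libraries (SD, n = 3). Actb rose by 0.37 (adjusted p = 0.029) and 0.51 (adjusted p = 0.0055) and Actg1 by 0.29 (adjusted p = 0.031) and 0.29 (adjusted p = 0.030, edgeR) in the first 2 comparisons, and neither was called in the labelled double-KO libraries, with the same calls without the unnumbered control library. Leaving out another library lost the Actb call in the labelled Rasa1-KO libraries in 5 of the 12 fits and each Actg1 call in 4 (adjusted p at most 0.10, edgeR). Every library with low Nf2 mRNA was above every control library for both actins in CPM. For Actb, as with Cnn2, these libraries were also above all labelled double-KO libraries. For Actg1 the labelled double-KO libraries (1324 to 1425 CPM) were themselves above every control library (at most 1242). In TPM the labelled Rasa1-KO libraries overlapped control for Actb (2101 to 2184 against 2047 to 2559). Only the Nf2-KO libraries (2693 to 2998) were above control for Actb in TPM. For Actg1 every knockout group overlapped control in TPM (793 to 888, 920.5 to 1075 and 736 to 1064, in the same order of groups, against 744 to 1118).

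Of 25 other SRF and MRTF targets of the actin cytoskeleton, 6 rose and 7 fell in the labelled Rasa1-KO libraries, 6 rose and 6 fell in Nf2-KO, and 2 rose and 1 fell in the labelled double-KO libraries. The first 4 counts are near the shares of all genes. Their median log2 change was -0.12, -0.04 and 0.02. With the unnumbered control left out 8 rose and 11 fell (beside 30.2% and 30.2% of all genes), 7 rose and 8 fell (30.6% and 30.9%), and 6 rose and 4 fell (17.2% and 12.8%). Smtn (smoothelin, a stress fibre protein) rose by 1.32 (adjusted p = 0.0025) and 1.59 (adjusted p = 6.6e-04) in the first 2 comparisons, and Cnn3 (calponin 3) by 1.34 (adjusted p = 4.2e-05, edgeR) in Nf2-KO. Fhl1, a LIM-domain protein of muscle, fell by 1.45 (adjusted p = 0.0032) and fell by 2.84 (adjusted p = 3.8e-05, edgeR), from 11.2 CPM in control to 4.08 and 1.56. Tgfb1i1 (HIC-5, a focal adhesion adaptor) fell by 2.37 (adjusted p = 0.042, edgeR) in the labelled Rasa1-KO libraries, at under 1 CPM in all 12 libraries and with the unnumbered control (0.106 CPM) among the knockout libraries. In the labelled double-KO libraries, Flnc (filamin C) rose by 0.74 (adjusted p = 0.0089) and Lima1, an actin-bundling LIM protein, fell by 0.39 (adjusted p = 0.045, edgeR). Both were called in the same directions in the other 2 comparisons with control, which share the control libraries. The calls of Tgfb1i1 and, in the labelled double-KO libraries, of Lima1 were each lost in 9 of the 12 fits that left out 1 library (adjusted p 0.053 to 0.13 and 0.075 to 0.24, edgeR).

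Of 8 SRF targets of the ternary complex factors, 2 rose and 0 fell in the labelled Rasa1-KO libraries, 2 rose and 1 fell in Nf2-KO, and 1 rose and 0 fell in the labelled double-KO libraries. With 8 genes, counts of 2 are near the shares of all genes. Their median log2 change was -0.29, -0.40 and -0.20. With the unnumbered control left out 2 rose and 2 fell (beside 30.2% and 30.2% of all genes), 2 rose and 2 fell (30.6% and 30.9%), and 1 rose and 0 fell (17.2% and 12.8%). Junb, an AP-1 subunit, rose in all 3 comparisons with control, by 0.93 (adjusted p = 3.0e-04), 0.72 (adjusted p = 0.0015) and 0.70 (adjusted p = 0.012, edgeR), from 342 CPM in control to 652, 562 and 555. Egr2, a zinc finger factor, rose by 1.36 (adjusted p = 0.026) and 1.76 (adjusted p = 0.0071) in the first 2, and Mcl1, a survival factor, fell by 0.32 (adjusted p = 0.029, edgeR) in Nf2-KO. Single libraries left out lost the calls of Egr2 in the labelled Rasa1-KO libraries (3 of the 12 fits), Junb in the labelled double-KO libraries (2) and Mcl1 (4), with adjusted p of at most 0.11 (edgeR). Egr1, Egr3, Fos, Fosb and Ier2 were not called against control in any group. For Egr1 and Egr3 this rests on the unnumbered control library, without which Egr1 was lower in the labelled Rasa1-KO libraries (-1.66, adjusted p = 0.047) and Egr3 in these (-1.22, adjusted p = 0.018) and in Nf2-KO (-1.08, adjusted p = 0.032, edgeR). Egr1 ran from 6.41 to 98.2 CPM within control and from 9.43 to 66.7 within the labelled double-KO libraries, a wider spread than the 21.5 to 34.8 of the labelled Rasa1-KO libraries or the 22.7 to 44.8 of Nf2-KO. The lowest values of each were those of the unnumbered control and labelled double-KO 1.

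**Figure D4:**
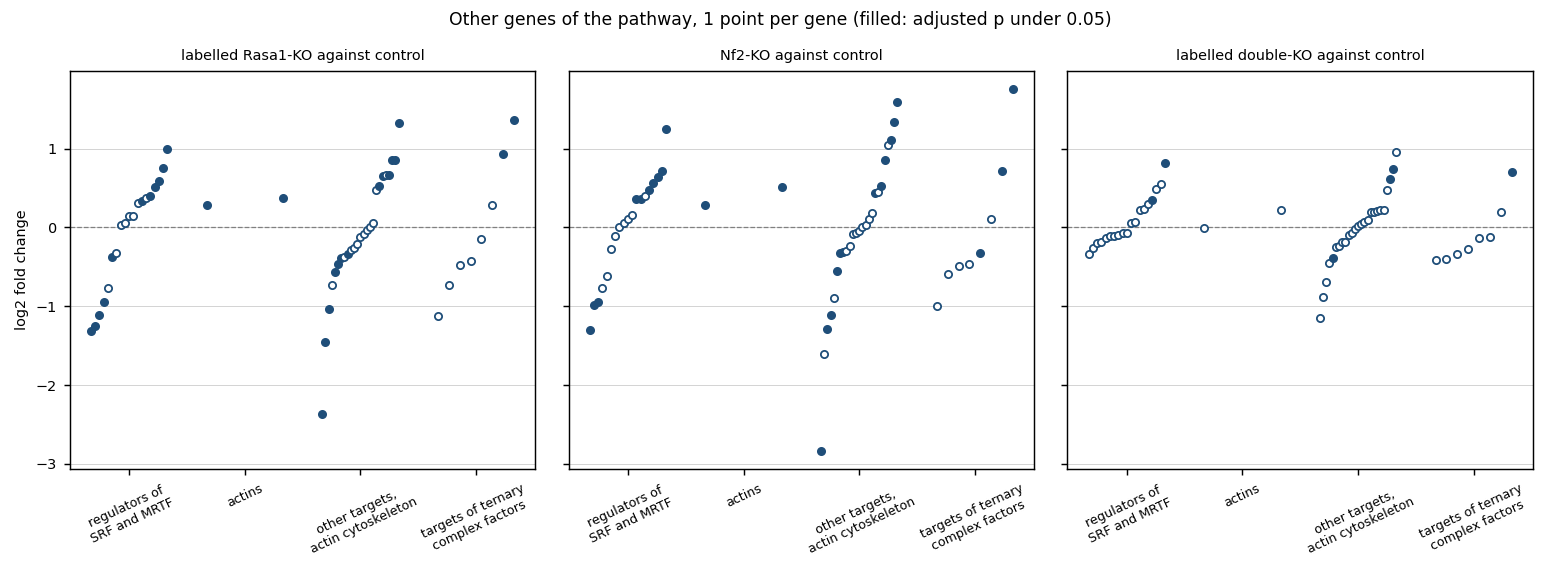
Log2 fold change against control (vertical axis) of the other genes of the pathway, 1 point per gene in order of its change within each list, filled where the adjusted p was under 0.05 in edgeR. Points lie on both sides of 0 in the regulators, the other actin targets and the targets of ternary complex factors, and 3 of the 25 other actin targets are filled for the labelled double-KO libraries.

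Markers of other cell types moved with the groups, and their part in these results was not tested. Of 6 epithelial markers 6 were tested, with a sum of 3198 to 7796 CPM, of which Krt8 (keratin 8) was the most abundant gene. Not all of them were high: Cldn4 (claudin 4) was at 0.0228 to 0.815 CPM in all 12 libraries. Of 8 fibroblast markers 6 were tested, and their sum was 73.8, 921 and 738 CPM in control (unnumbered, 1 and 2). It was 2476 to 2613 CPM in the labelled Rasa1-KO libraries, 6990.1 to 7583 in Nf2-KO and 116 to 274 in the labelled double-KO libraries. Most of it was Col3a1, a fibrillar collagen, at 489.8, 2353, 6575 and 193 CPM on average. In both groups with low Nf2 mRNA 5 of the 6 rose, among them Col1a2 (log2 changes 7.27, adjusted p = 3.2e-06, and 9.47, adjusted p = 4.5e-07), Col1a1 (2.66, adjusted p = 0.016, and 5.00, adjusted p = 6.4e-04) and Pdgfra (3.28, adjusted p = 0.0048, and 4.45, adjusted p = 8.4e-04, edgeR), and Dcn fell, as it did in the labelled double-KO libraries. Without the unnumbered control library the counts in the first 2 groups were the same, and 4 of the 6 fell in the labelled double-KO libraries (Col3a1, Dcn, Pdgfra and Pdgfrb), beside 12.8% of all genes. The Dcn call in Nf2-KO was lost in 10 of the 12 fits that left out 1 library, the Col3a1 call in the labelled Rasa1-KO libraries in 4 and the Col1a1 call there without control 1 (adjusted p = 0.052, edgeR). The fibroblast sum was thus high where Cnn2 was high, and where Myl9 was low.

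Of 7 smooth muscle markers only Des and Cnn1 were tested, with a sum of 0.241 to 1.07 CPM per library and no call against control (without the unnumbered control library, Des fell in the labelled Rasa1-KO libraries, and without control 2 Cnn1 rose in Nf2-KO), and Myh11, Lmod1, Actg2, Synpo2 and Myocd were not analysed here. Acta2 reached 17.2 CPM in a library labelled double-KO where this sum was 0.263 CPM. Of 3 endothelial markers, 2 were tested, with a sum of 0.552 to 1.53 CPM. Pecam1 fell and Kdr rose in both groups with low Nf2 mRNA, and without the unnumbered control library Kdr also fell in the labelled double-KO libraries. The 2 Kdr calls were lost in 3 and in 4 of the 12 fits. Of 3 leukocyte markers, 2 were tested, with a sum of 5.67 to 22.7 CPM, nearly all of it Cd68, which rose by 1.58 (adjusted p = 7.7e-04) and 1.02 (adjusted p = 0.0095, edgeR) in the same 2 comparisons. Ptprc was called too without the unnumbered control library, lower in both, and Cd68 was called higher in the labelled double-KO libraries without labelled double-KO 1. Epithelial genes went both ways: 4 rose and 1 fell in the labelled Rasa1-KO libraries, and 1 rose and 1 fell in each of the other 2 comparisons with control. That difference in counts rests on 1 library: without the unnumbered control 4 rose and 1 fell (beside 30.2% and 30.2% of all genes), 4 rose and 1 fell (30.6% and 30.9%) and 3 rose and 1 fell (17.2% and 12.8%). Epcam fell in all 3 comparisons with control, with log2 changes of -1.55 (adjusted p = 6.3e-05), -2.63 (adjusted p = 1.2e-06) and -0.84 (adjusted p = 0.018), and Krt7 rose by 2.46 (adjusted p = 1.8e-05) and 0.98 (adjusted p = 0.0055, edgeR) in the first 2. Krt18 rose by 0.83 (adjusted p = 0.0065), Krt19 by 0.70 (adjusted p = 0.0042) and Krt8 by 0.64 (adjusted p = 0.035) in the labelled Rasa1-KO libraries, and Krt19 by 0.72 (adjusted p = 0.019, edgeR) in the labelled double-KO libraries. Leaving out 1 library lost the Krt8 call in 7 of the 12 fits, the last Krt19 call in 3, and the last Epcam call without control 1 (adjusted p = 0.063, edgeR).

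**Figure D5:**
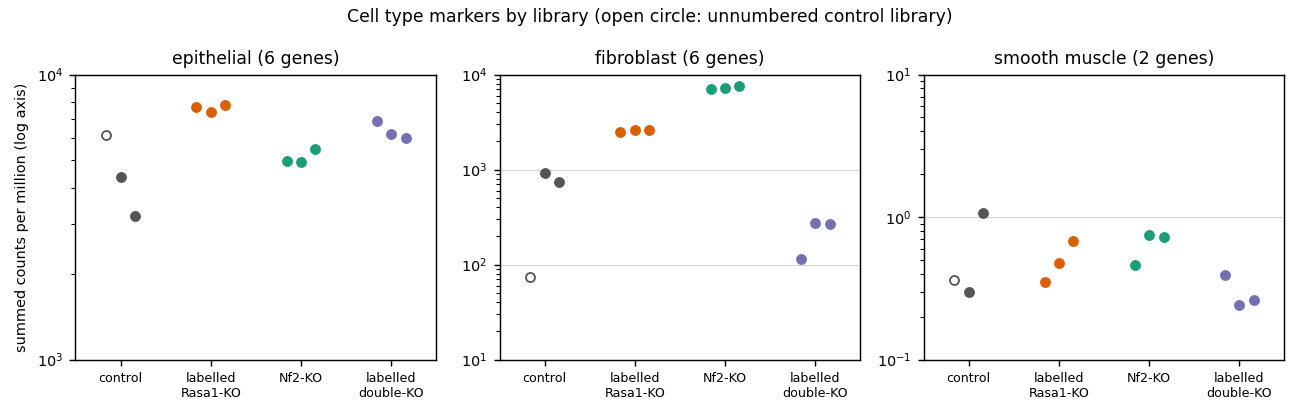
Summed CPM (vertical axis, log scale) of epithelial, fibroblast and smooth muscle markers in the 12 libraries, 1 point per library by group, with an open circle for the unnumbered control library. The fibroblast sum was between 6990.1 and 7583 in Nf2-KO and between 116 and 274 in the labelled double-KO libraries, and the smooth muscle sum (Des and Cnn1) was at 1.07 or below in all 12.

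The genes most like the 3 members with the widest group ranges were sought among 9880 genes, by the root mean square difference of centred log2 CPM over the 12 libraries. Nearest to Myl9 were Trf, the iron carrier transferrin (0.35), Ptprr, a tyrosine phosphatase (0.63), and Ror1, a receptor of the WNT family of ligands (0.65). Trf stood at 1366 ± 176 CPM in control, 171 ± 2.86 in the labelled Rasa1-KO libraries, 191 ± 7.74 in Nf2-KO and 2610.0 ± 223 in the labelled double-KO libraries, the group order of Myl9. Nearest to Acta2 were Trps1 (0.77), Arhgap32, a GTPase-activating protein (0.81), and Tenm4 (0.81), a looser likeness than that of the others. Nearest to Tpm2 were Sprr1a, a cornified envelope protein (0.18), Isg20, an exonuclease (0.22), and Slc9b2, a sodium/proton exchanger (0.23). Sprr1a stood at 46.9 ± 13.8 CPM in control, 121 ± 10.9 in the labelled Rasa1-KO libraries, 97.6 ± 10.3 in Nf2-KO and 123 ± 22.3 in the labelled double-KO libraries.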

How the data were processed

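Total RNA of the S1 cells, depleted of rRNA, gave 12 libraries made with a stranded kit. The submitters' notes name Trimmomatic 0.38, HISAT2 2.1.0, SAMtools 1.9, StringTie 2.1.3b and mm10. The authors deposited raw read counts per gene, FPKM and TPM for each library; a log2 column was also deposited by the authors and was not used. Each listed gene had at least 1 count in every library, so genes that were silent in any library could not be seen. Whether counting used strand, and how reads shared by paralogs were counted, was not stated.

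Groups came from the labels of the samples, not from the names of the tables, which exchange the Rasa1-KO and double-KO groups. The members and the gene lists were chosen with earlier results of these data known. The count model was edgeR 4.0.16 in R 4.3.3: filterByExpr kept 18053 genes, libraries were scaled by TMM (factors 0.946 to 1.15), and 1 robust quasi-likelihood fit over the 4 groups gave every comparison. TPM served for levels between genes and as a second unit for Srf, Vcl, Flna, Actb and Actg1, and FPKM only for alternatives. Standard errors are the log2 change over the square root of F. The likeness search took genes with a mean log2 CPM of at least 3 (prior count 2). Genes named are the members, Mrtfa, Mrtfb, Actb, the targeted genes and, per list and comparison with control, the 3 largest changes called; Car9, Pcsk7 and Ap3m1 were added as overlapping genes, and Actg1, Col3a1, Krt8, Dcn, Cd68 and genes not called were named after their values were seen. A gene that this rule selects among the other targets is not reported here. Every pair of libraries of a group differed by more than sampling noise (median chi-square per gene 2.52 to 47.6, where 0.455 is expected), so none was treated as a repeat deposit of another; this does not show that they came from separate cultures. An exact test of 3 against 3 cannot go below p = 0.10, so none was run.

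By the replicate numbers in the labels, deviations of same-numbered libraries correlated between -0.38 and 0.40. By the numbers that the table names carry, the 3 pairs of control and labelled double-KO correlated at 0.63, 0.31 and 0.44, and a block by these numbers changed no call of a member in that comparison. Alternatives were RLE factors, DESeq2 1.42.0, no filter, only the groups compared, both replicate blocks, limma 3.58.1 on log2(FPKM + 1) or log2(FPKM + 0.1), other call rules and each library left out. Gene lists and departures from additivity with single libraries left out, and Tagln with no filter, were added after seeing the data. The code was tested on simulated data. Promoter windows and positions are from RefSeq, GRCm38.p6. Figures were drawn with matplotlib 3.10.9.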

Additional observations from a re-analysis of the deposited data

Results flagged for a closer look

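The effects of the labelled knockouts differed from additivity by a test of the difference itself (an interaction contrast in edgeR). As labelled, the departure on the log2 scale was 4.08 for Acta2, 0.53 for Tagln2, 6.50 for Myl9, -2.49 for Cnn2, -0.77 for Tpm1, -1.19 for Tpm2 and -0.82 for Srf. Of all genes tested, 52.1% departed in this test. With the labels of the Rasa1-KO and double-KO libraries exchanged, it was -3.37 for Acta2, -1.16 for Tpm2 and -1.64 for Myl9, beside 6.32% of all genes tested. The departures of Tagln2 and Tpm1 as labelled, and of Myl9 with exchanged labels, were lost in 8, 10 and 8 of the 12 fits that left out 1 library, among them the fit without labelled double-KO 1 (adjusted p = 0.054, 0.063 and 0.054, edgeR). The labels and the Nf2 mRNA of these libraries disagree, and which of the 2 readings holds was not tested.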

How the results depend on the processing

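Over the 9 members tested and 5 comparisons, 900 alternative values were computed, of which 803 kept their direction and side of the threshold, 37 lost a call, 40 gained one and 20 changed sign. None of the sign changes was in a called value. Causes of the changes were not tested.

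Members called moved as follows, with the range over single libraries left out. Labelled Rasa1-KO against control: 2 higher became 5 (replicate block by file numbers) and 0 (fold of at least 3 with raw p), range 2 to 4. Nf2-KO against control: 3 higher became 5 and 0 under the same settings, range 2 to 5, and 1 lower became 2 (replicate block by label numbers, and DESeq2) and 3 (block by file numbers), range 1 to 3. Labelled double-KO against control: 4 higher became 2 (replicate block by label numbers), 1 (only the groups compared) and 1 (fold of at least 3), range 2 to 5; under the label block Acta2 was at 1.63 (adjusted p = 0.13, edgeR). Labelled Rasa1-KO against labelled double-KO: 2 higher became 1 (label block), 0 (fold of at least 3) and 1 (fold of at least 1.5), range 1 to 2; with only the groups compared Tpm1 (0.27, adjusted p = 0.011) and Flna (-0.22, adjusted p = 0.039, edgeR) were called too, and Flna without control 2 (-0.24, adjusted p = 0.044). Labelled Rasa1-KO against Nf2-KO: 0 higher became 1 (block by file numbers, DESeq2, only these groups), range 0 to 1, and 0 lower became 1 (block by file numbers, limma with either pseudocount), 2 (DESeq2) and 3 (only these groups), range 0 to 2. Calls over all genes moved too (percent of genes tested, higher and lower, in the same order of comparisons). The block by file numbers gave 25.8 and 26.1, 26.2 and 26.8, 7.97 and 5.81, 20.6 and 21.2, and 4.25 and 4.32. The block by label numbers gave 1.90 and 0.859 in labelled double-KO against control and 9.36 and 11.2 in labelled Rasa1-KO against labelled double-KO, and fewer than the 22.1 without it for genes lower in Nf2-KO. Fits of only the groups compared gave 11.5 and 13.2, 12.8 and 15.4, 0.0283 and 0.0283, 23.4 and 23.8, and 12.4 and 14.2. In labelled Rasa1-KO against Nf2-KO, DESeq2 gave 3.39 and 4.11 and limma 1.46 and 3.30 (pseudocount 1) and 1.53 and 2.51 (pseudocount 0.1), and in Nf2-KO against control DESeq2 called 22.5% lower. Under the rule of a fold of at least 3, the shares higher were 3.16, 3.76, 0.571 and 2.01 in the first 4 comparisons, and under that of at least 1.5 the share was 9.55 in the fourth. Single libraries left out gave 14.8 to 30.2 and 15.3 to 30.2, 15.9 to 30.6 and 15.9 to 30.9, 1.91 to 17.2 and 0.715 to 12.8, 8.75 to 22.3 and 10.4 to 24.2, and 0.643 to 5.48 and 0.451 to 6.75. The calls gained with the block by file numbers were, in labelled Rasa1-KO against control, Tpm1 (0.53, adjusted p = 0.038), Vcl (0.29, adjusted p = 0.049) and Srf (0.39, adjusted p = 0.013), and in Nf2-KO against control Tpm1 (0.70, adjusted p = 0.011), Vcl (0.31, adjusted p = 0.037), Acta2 (-0.74, adjusted p = 0.022) and Tagln2 (-0.39, adjusted p = 0.043, edgeR). In these 2 comparisons same-numbered libraries correlated between -0.05 and 0.17, so the numbers were not taken to pair them. Departures from additivity went from 7 to 3 with exchanged labels, and over all genes from 52.1% to 6.32%.

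Signs changed only near 0. In labelled double-KO against control, limma gave -0.01 for Tagln2 and -0.03 for Flna with either pseudocount, and leaving out libraries gave -0.03 to 0.22 for Tagln2, -0.01 to 0.38 for Cnn2, -0.13 to 0.42 for Tpm1 and 0.00 to 0.16 for Flna. In labelled Rasa1-KO against control Tagln2 ranged from -0.21 to 0.02, and in Nf2-KO Acta2 from -0.77 to 0.02. In labelled Rasa1-KO against labelled double-KO Tpm2 was at -0.10 (block by file numbers), -0.01 (limma, either pseudocount) and -0.04 to 0.07. In labelled Rasa1-KO against Nf2-KO Vcl was at 0.05 (label block) and -0.09 to 0.04. Pseudocounts shrink scarce genes: in labelled Rasa1-KO against control, log2(FPKM + 1) moved Acta2 from -1.82 to -0.78 and Myl9 from -2.68 to -1.05. Tagln had at most 13 counts per library.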
